A study of Arabidopsis thaliana with 22 samples.

Results

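A set of 9 Arabidopsis thaliana genes whose transcripts were lower in roots kept without sulfate is described here across 24 h. They were taken from 13333 genes that have a probe set of their own. They are AT1G61740 of the TauE/SafE family, AT3G45700, a member of the nitrate and peptide transporter family, AT5G44720 of the molybdenum cofactor sulfurase family, AT1G21440, AT3G14280, AT4G25835, AT3G50620, AT5G60760 and AT5G01740. They were chosen by the signal difference between media on these same arrays, at 24 h or on average over the 5 times, so every difference between media below is a description and carries no test. The other 6 loci appear in the tables used here under their locus number, with no name or function. For lists of relatives, background knowledge placed AT1G21440 in the isocitrate lyase and PEP mutase superfamily and AT4G25835 among AAA-type ATPases. No role is assigned to any of the 6.

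Roots of 10-day-old Col-0 plants (stock N1092) were hybridised to 22 oligonucleotide arrays. Plants were transferred to MGRL agar with 0 uM sulfate, called sulfate-free, or with 1500 uM sulfate, called replete, and sampled 2, 4, 8, 12 and 24 h later. A further group, labelled 0 h and not treated, is called untreated. Each of the 11 groups has 2 arrays, A and B, but the labels do not say whether they are separate cultures. The p-values therefore reflect only how far these arrays vary, which may be technical variation.

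Sulfate is taken up by root transporters, activated, reduced to sulfide and built into cysteine, from which methionine, glutathione and glucosinolates draw their sulfur. When sulfate runs short, roots of this species are known to raise sulfate uptake and to lower glucosinolate synthesis. TauE/SafE proteins are known in bacteria as exporters of sulfite and sulfonates. The nitrate and peptide transporter family carries nitrate, peptides, hormones and glucosinolates across membranes. Molybdenum cofactor sulfurases add a sulfur atom to the cofactor that some oxidases need.

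All values are MAS5 signals on a linear scale, as deposited. The median signal of an array lay between 42.46 and 46.14, and the 2 arrays of a group correlated with r from 0.96 to 0.983. Fold changes are on the log2(signal + 11) scale, on which changes of dim probe sets come out too small. Each member is read by 1 probe set, and all 9 passed the filter on low signals. In bulk roots, fewer cells of a type and less transcript per cell cannot be told apart. The root gene PYK10, a beta-glucosidase of endoplasmic reticulum bodies, had signals between 2041 and 4072. The green tissue genes RCA, for Rubisco activase, and LHCB4.1, for a light-harvesting protein, ranged from 65.27 to 284.5 and from 57.07 to 190.2, so their signals were not near 0.

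**Figure D1:**
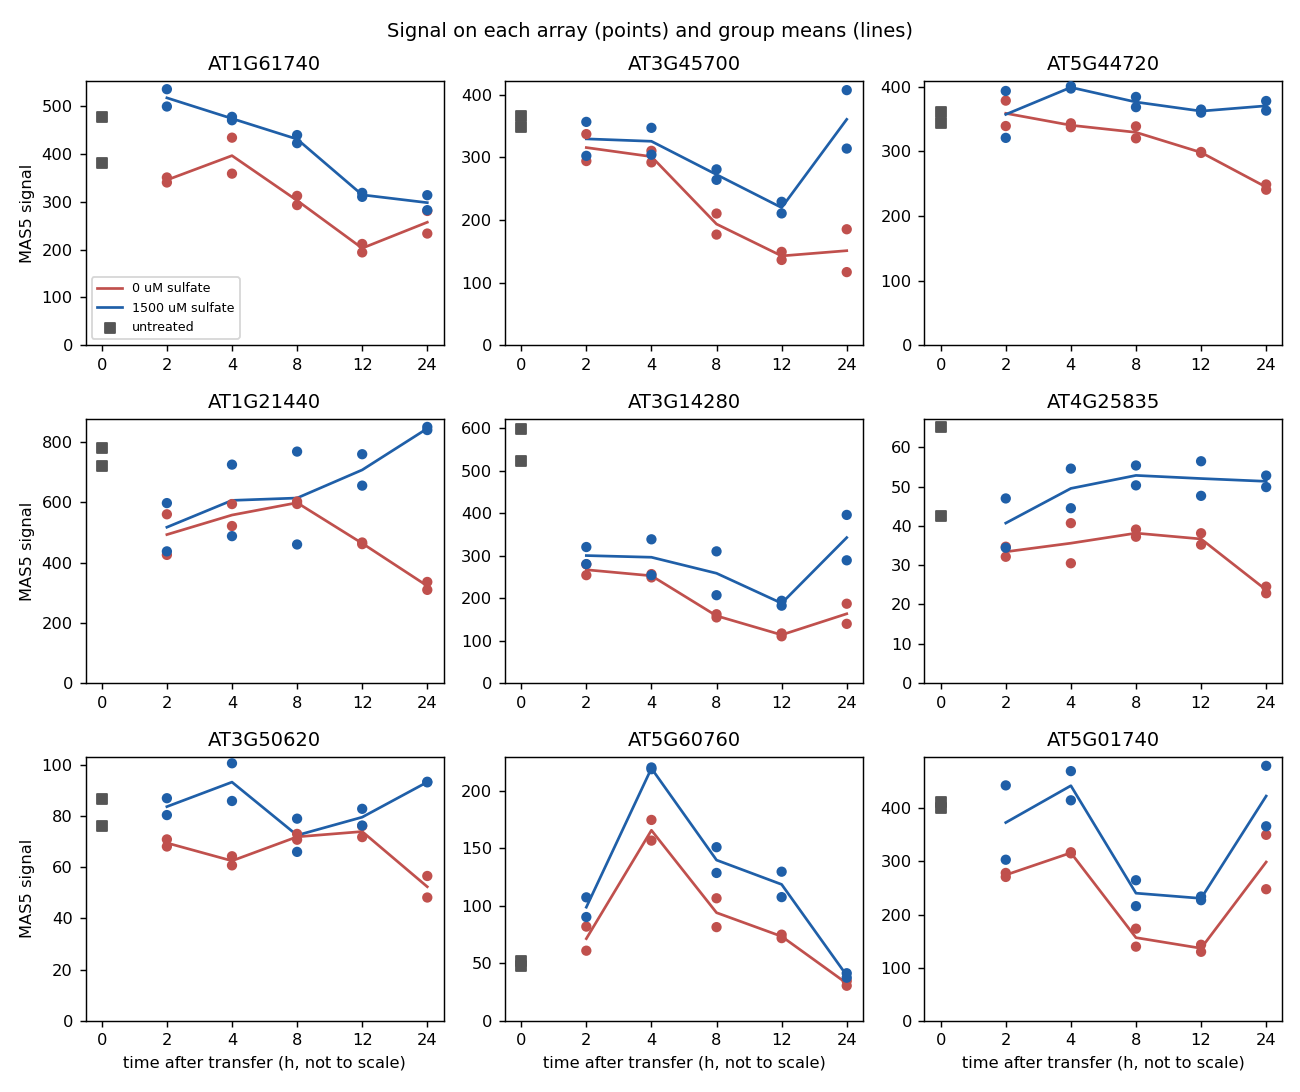
MAS5 signal (vertical axis, from 0) of the 9 genes against time after transfer in h (horizontal axis, not to scale). Points are single arrays, lines join the means of 2 arrays without sulfate (red) and with 1500 uM sulfate (blue), and grey squares are untreated roots. At 12 and 24 h both sulfate-free arrays lie below both replete arrays for all 9 genes.

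The gene of the TauE/SafE family, AT1G61740, differed between media from the earliest sample. On arrays A and B its signal was 477 and 381 in untreated roots. After 2 h it was 351 and 340.2 without sulfate, against 535 and 499 with it. After 12 h it was 194 and 212 without sulfate and 318.5 and 310.2 with it. The media did not overlap at any of the 5 times. The log2 difference of sulfate-free minus replete roots at 2, 4, 8 and 12 h was -0.57, -0.26, -0.49 and -0.61 (SE 0.13 each). At 24 h it was -0.21 (SE 0.13), from signals of 233.5 and 281 without sulfate and 314 and 282 with it, where the nearest arrays of the media almost meet. Leaving out 1 array of 24 h moved that last difference to between -0.34 and -0.08.

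Both media also carried less AT1G61740 transcript late in the experiment. To compare transferred with untreated roots, the mean of both media was set against untreated roots. Any effect of sulfate enters this mean in part. Untreated roots were sampled at 0 h only, so transfer and elapsed time cannot be told apart. With equal numbers of arrays the contrast is orthogonal to the difference between media that chose the genes, although it includes the level of the sulfate-free roots. Both use the same estimate of the spread, so the tests are not independent of the choice. Leaving out an array of a medium also ends the equal numbers. AT1G61740 fell at 12 h by 0.73 on the log2 scale (SE 0.11, limma adjusted p = 4.81e-04) and at 24 h by 0.61 (adjusted p = 0.017). At 2, 4 and 8 h the differences were -0.01, 0.02 and -0.23. The replete roots alone stood at -0.43 at 12 h and -0.50 at 24 h against untreated ones, and the sulfate-free roots at -1.03 and -0.71. The call at 12 h was made under all 29 alternative settings. That at 24 h was lost without the untreated array A (adjusted p = 0.477), the sulfate-free 24 h array A (0.0748) or the replete 24 h array B (0.0635).

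Among its family, AT1G61740 could be set beside 1 relative. Of 5 loci listed from background knowledge as TauE/SafE genes, 3 lie on named probe sets and 2 were tested. The other, AT1G11540, differed between media by 0.15 (SE 0.20) at 24 h and by -0.05 (SE 0.09) over the 5 times. Against untreated roots the mean of both media differed by 0.07 at 12 h for AT1G11540 (adjusted p = 0.819). Its signal was 167.7 ± 16.85 (SD, n = 2) in untreated roots, 164.4 ± 18.88 at 12 h without sulfate and 190.5 ± 23.59 with it.

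The transporter gene AT3G45700 separated from replete medium later. On arrays A and B it read 348 and 366 in untreated roots. At 4 h the media overlapped, with 292 and 310.4 without sulfate and 347 and 304 with it. At 8 h they no longer did: 177 and 210.3 against 264 and 281. At 24 h the signals were 117 and 185 without sulfate and 314 and 407 with it. The log2 differences at 2, 4, 8, 12 and 24 h were -0.06, -0.11, -0.48, -0.59 and -1.22 (SE 0.18 each). Without 1 array of 24 h the last lay between -1.53 and -0.91, since the arrays of a group are 1.59-fold apart there.

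In replete roots AT3G45700 dipped and returned. Its mean signal was 329.5 ± 38.4 at 2 h, 220 ± 13.1 at 12 h and 361 ± 65.9 at 24 h (SD, n = 2), against 357 ± 12.7 in untreated roots. The replete difference from untreated roots was -0.68 (SE 0.18) at 12 h and 0.00 at 24 h, whereas sulfate-free roots stood at -1.26 and -1.22. The mean of both media fell at 8 h by 0.62 (SE 0.15, limma adjusted p = 0.0196) and at 12 h by 0.97 (adjusted p = 5.26e-04). At 24 h it differed by -0.61, with adjusted p = 0.114 without a block and 0.0145 with the array letter as a factor. The 8 h call was lost without the untreated array A (adjusted p = 0.14), the untreated array B (0.123) or the sulfate-free 8 h array A (0.0703), and the 24 h difference was called without the sulfate-free 24 h array B (0.0161). Over all single arrays left out, that 24 h difference ranged from -0.76 to -0.45 and its adjusted p from 0.0161 to 0.504.

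Of 53 loci listed from background knowledge as nitrate and peptide transporter genes, 34 lie on named probe sets and 19 were tested. At 12 h the mean of both media had risen for 3 and fallen for 3 of the 19, AT3G45700 among the latter. It had risen for 2 at 2 h, 3 each at 4 and 8 h and 1 at 24 h, and had fallen for 1 at 8 h. Over all probe sets kept, 3.76%, 2.92%, 3.52%, 5.77% and 0.33% had risen in the order of the times and 2.01%, 1.25%, 3.69%, 6.87% and 0.147% had fallen. AT1G72140 rose by 2.46 (SE 0.22, limma adjusted p = 1.67e-06) at 2 h, from 120.4 ± 18.91 to 687.9 ± 139.4 without sulfate and 750.7 ± 236 with it (SD, n = 2). AT1G72140 was also called higher at 4, 8, 12 and 24 h, by 1.91, 1.58, 1.33 and 1.06. AT1G22550 rose by 0.77 at 8 h (SE 0.10, adjusted p = 1.57e-04) and was also called at 2, 4 and 12 h (0.67, 0.78 and 0.73). AT5G14940 fell by 0.78 at 12 h (SE 0.14, adjusted p = 0.00185). The list's median difference at 12 h was 0.14, beside 0.01 over all probe sets.

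Between media, the 19 genes had a median log2 difference of 0.06 at 24 h, beside 0.00 over all probe sets. Outside AT3G45700 the widest differences at 24 h were -0.61 (SE 0.23) for GTR2 and 0.60 (SE 0.15) for GTR1, both glucosinolate importers. GTR1 was higher without sulfate at every time, with a mean difference over the times of 0.35 (SE 0.07). GTR2 changed sign among the times, and its mean difference was -0.18 (SE 0.105). Of the loci numbered close to AT3G45700, AT3G45680 and AT3G45710 were tested, while AT3G45690 did not pass the filter on low signals. AT3G45710 differed between media by -0.11 (SE 0.23) at 24 h and AT3G45680 by 0.19 (SE 0.15). AT3G45680 rose against untreated roots at 4 h (0.53, SE 0.13, limma adjusted p = 0.0293), a time at which AT3G45700 differed by -0.19. Whether these genes differ from AT3G45700 was not tested.

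**Figure D2:**
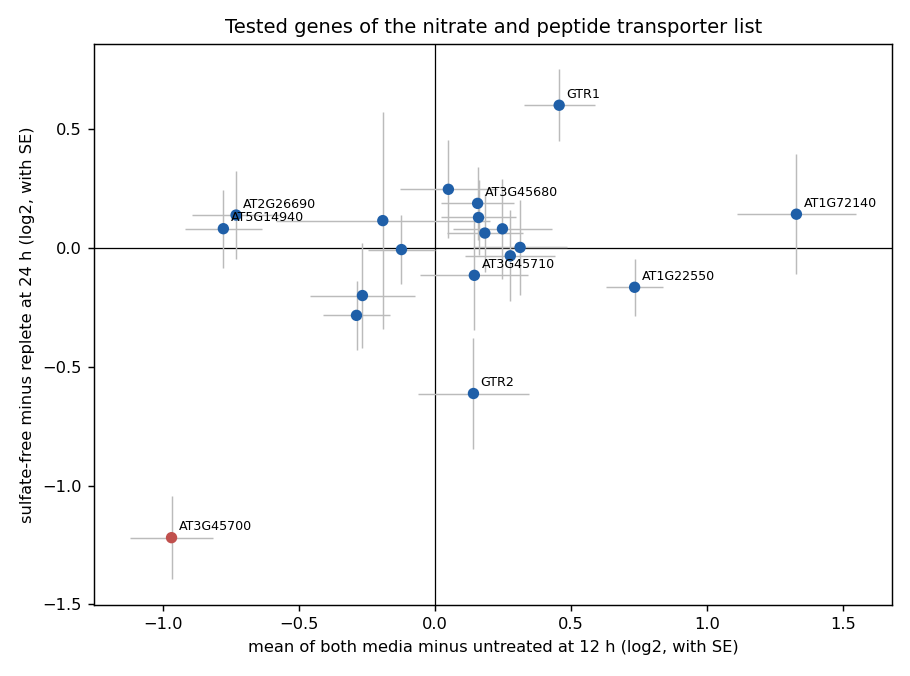
The 19 tested genes of the nitrate and peptide transporter list. The horizontal axis gives the log2 difference of the mean of both media from untreated roots at 12 h and the vertical axis that of sulfate-free minus replete roots at 24 h, with standard errors as bars. AT3G45700, in red, lies at -0.97 and -1.22, and GTR1 and GTR2 lie at 0.60 and -0.61 on the vertical axis.

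AT5G44720, of the molybdenum cofactor sulfurase family, had the smallest mean difference over the 5 times of the 9 genes, -0.25 (SE 0.05), and closely matching arrays. On arrays A and B its signal was 343 and 360.5 in untreated roots. After 24 h it was 249 and 241 without sulfate and 378 and 363 with it. Its log2 differences between media were 0.01, -0.22, -0.19, -0.27 and -0.58 (SE 0.11 each) at 2, 4, 8, 12 and 24 h. The media overlapped at 2 h only, when the arrays read 339 and 378 without sulfate and 321 and 393 with it.

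Replete roots kept AT5G44720 near its untreated level, with differences from untreated roots between 0.01 and 0.18. Those of sulfate-free roots were 0.03, -0.05, -0.09, -0.23 and -0.51 in the order of the times. Both arrays after 24 h without sulfate lay below every other array of the gene. The mean of both media was not called against untreated roots at any time, with log2 differences between -0.22 and 0.06 and limma adjusted p of at least 0.413. Of 18 loci listed around the molybdenum cofactor, 3 were tested. AT2G43760 and AT1G30910 differed between media by -0.39 (SE 0.13) and 0.19 (SE 0.14) at 24 h, and against untreated roots the limma adjusted p of the 3 was at least 0.189 at every time.

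AT1G21440 showed the widest difference between media at 24 h of the 9 genes. On arrays A and B its signal was 722 and 782 in untreated roots. After 24 h it was 309.5 and 336 without sulfate and 851 and 840.5 with it. The log2 difference was -1.36 (SE 0.22), or 2.57-fold. It was -0.06, -0.09 and 0.01 at 2, 4 and 8 h, and -0.59 at 12 h.

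In replete roots the early samples of AT1G21440 were spread more widely between the arrays of a group than the media were apart. The sulfate-free arrays at 8 h lay close together, at 594.8 and 603.2. Replete roots read 488 and 726 at 4 h and 460.3 and 769 at 8 h on arrays A and B. Array B was above array A in 8 of the 11 groups. Against untreated roots the mean of both media differed by -0.58 (SE 0.19) at 2 h, with limma adjusted p = 0.0892 without a block and 0.0168 with the array letter as a factor. That difference was also called without either replete 8 h array (adjusted p = 0.0398 and 0.0399). Over all single arrays left out it ranged from -0.69 to -0.47, with adjusted p up to 0.331. From 4 to 24 h the differences lay between -0.51 and -0.33 and were not called. No other listed relative of AT1G21440 passed the filter, although all 4 loci of that list lie on named probe sets.

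**Figure D3:**
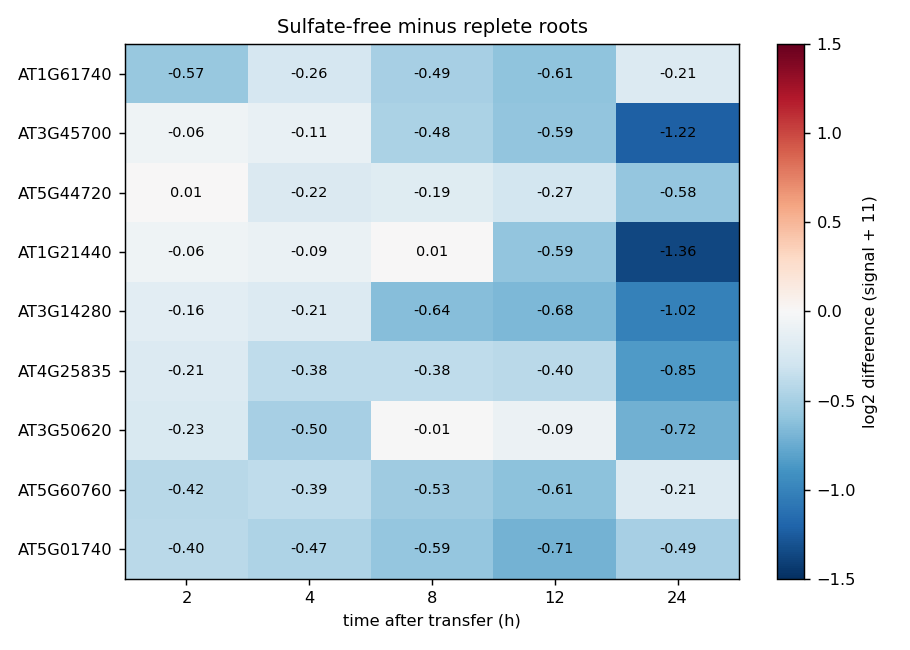
Log2 difference (signal + 11) of sulfate-free minus replete roots for the 9 genes (rows) at 2, 4, 8, 12 and 24 h (columns), coloured from blue (lower without sulfate) to red. AT1G61740 holds -0.57 at 2 h and -0.21 at 24 h, while AT1G21440 goes from -0.06 to -1.36.

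AT3G14280 was lower than in untreated roots in both media at every time after transfer. On arrays A and B it read 598 and 523.5 in untreated roots. At 12 h it read 117 and 110.1 without sulfate and 194 and 182 with it. At 24 h the signals were 187 and 139.5 without sulfate and 396 and 289 with it. All 20 arrays after transfer lay below both untreated arrays.

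The mean of both media fell for AT3G14280 at all 5 times, with log2 differences of -0.96, -1.01, -1.43, -1.86 and -1.22 (SE 0.17 each). The limma adjusted p in the order of the times was 0.00148, 0.00142, 3.71e-05, 1.44e-06 and 0.0011. The calls at 8 and 12 h were made under all 29 alternatives. Without the untreated array A those at 2, 4 and 24 h were lost (adjusted p = 0.0512, 0.0548 and 0.0553), with log2 differences of -0.86, -0.92 and -1.12. This decline of the mean holds part of the difference between media. Replete roots alone differed from untreated ones by -0.88, -0.91, -1.11, -1.52 and -0.71 (SE 0.19 each) in the order of the times. The media differed by -0.16, -0.21, -0.64, -0.68 and -1.02 (SE 0.19 each) at 2, 4, 8, 12 and 24 h. The arrays of the media overlapped at 4 h.

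AT5G01740 was low at 8 and 12 h in both media and differed between them at all 5 times. Its signal on arrays A and B was 413 and 401 in untreated roots. At 12 h it was 143 and 129.9 without sulfate and 227 and 234 with it, and at 24 h 350.2 and 248 without sulfate and 480.1 and 366 with it. No media overlapped at any time, although at 2 h the nearest arrays were 278 and 303. The log2 differences between media were -0.40, -0.47, -0.59, -0.71 and -0.49 (SE 0.19 each). Without 1 array of 24 h the last lay between -0.73 and -0.25.

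The mean of both media fell for AT5G01740 at 8 h by 1.03 (SE 0.16, limma adjusted p = 6.53e-04) and at 12 h by 1.15 (adjusted p = 1.9e-04). At 2, 4 and 24 h it differed from untreated roots by -0.35, -0.12 and -0.20, with adjusted p of 0.272, 0.846 and 0.67. Both calls were made under all 29 alternatives. Replete roots alone differed from untreated ones by -0.74 at 8 h, -0.79 at 12 h and 0.04 at 24 h.

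AT5G60760 was the only one of the 9 genes called higher after transfer. On arrays A and B it read 47.5 and 52.1 in untreated roots. At 4 h it read 175 and 157 without sulfate and 220.2 and 219 with it. By 24 h it was back to 34.6 and 30.5 without sulfate and 37.4 and 41.3 with it, below both untreated arrays in either medium. The 4 h arrays were the highest of all in either medium.

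The mean of both media rose for AT5G60760 at 2, 4, 8 and 12 h, by 0.64, 1.73, 1.04 and 0.78 on the log2 scale (SE 0.13 each). The limma adjusted p was 0.00711, 7.62e-07, 1.14e-04 and 0.00114. At 24 h the difference was -0.38 (adjusted p = 0.297). Without the untreated array A the 2 h rise was 0.58 and was lost (adjusted p = 0.129), and the other 3 calls were made under all 29 alternatives. The rise was smaller without sulfate at each of these times. The log2 difference between media was -0.42, -0.39, -0.53, -0.61 and -0.21 (SE 0.16 each) in the order of the times, with no overlap of the media at any.

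AT4G25835 and AT3G50620 were dimmer. AT4G25835 read 65.1 and 42.6 on arrays A and B of untreated roots, 24.5 and 22.9 after 24 h without sulfate and 49.9 and 52.8 with it. Its sulfate-free signal at 24 h lay below 27, the level that corresponds to the filter on the mean. The log2 difference between media at 24 h was -0.85 (SE 0.17), and it was -1.08 with a pseudocount of 1 and -0.58 with one of 32. At 2, 4, 8 and 12 h it was -0.21, -0.38, -0.38 and -0.40. Array B was above array A in 1 of the 11 groups, and at 2 h the media overlapped.

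AT3G50620 read 86.4 and 76.2 on arrays A and B of untreated roots, 48.1 and 56.5 after 24 h without sulfate and 93.3 and 93.1 with it. The difference between media was -0.23, -0.50, -0.01, -0.09 and -0.72 (SE 0.12 each) in the order of the times. It thus had no steady course, and at 8 h the media overlapped. For neither gene was the mean of both media called against untreated roots in limma without a block. AT4G25835 differed by -0.42 (SE 0.15) at 2 h, with adjusted p = 0.128 without a block, 0.032 with the array letter as a factor and 0.0418 without the untreated array B. Without the untreated array A the same difference was -0.17 (adjusted p = 0.852), so it rests on which untreated array is kept. AT3G50620 differed by at most 0.18 in size at any time, with adjusted p of at least 0.446.

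Of 24 loci listed as relatives of AT4G25835, 15 lie on named probe sets and 5 were tested. AT5G17760 rose against untreated roots at 2 h by 1.18 (SE 0.13, limma adjusted p = 1.19e-05) and was also called at 4, 8 and 12 h. AT5G57480 fell at 12 h by 0.64 (adjusted p = 0.014). Besides AT4G25835 the widest difference between media at 24 h was -0.38 (SE 0.18), for AT5G57480.

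Considered together, the 9 genes had a median log2 difference between media of -0.21, -0.26, -0.48, -0.59 and -0.72 in the order of the times. Over all probe sets the medians lay between -0.00 and 0.02. The genes were chosen on the difference at 24 h or on average, so these medians and the counts below are partly built in. AT1G61740, AT5G60760 and AT5G01740, which were not called at 24 h, differed by -0.61, -0.61 and -0.71 at 12 h. At 24 h they differed by -0.21, -0.21 and -0.49. Both sulfate-free arrays lay below both replete arrays for 5 of the 9 at 2 h, 6 at 4 h, 7 at 8 h and all 9 at 12 and 24 h. Over all 13648 probe sets that passed the filter the shares at these times were 12.3%, 11.1%, 14.2%, 15.1% and 12.7%. Some of these counts rest on near ties, such as 279.6 against 280.3 for AT3G14280 at 2 h, 76.01 against 76.2 for AT3G50620 at 12 h and 280.7 against 282.4 for AT1G61740 at 24 h. At all 5 times both sulfate-free arrays lay below both replete arrays for 3 of the 9, AT1G61740, AT5G60760 and AT5G01740. The share of the probe sets kept was 0.0733%.

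On the log2(signal + 11) scale the group mean was lower without sulfate at all 5 times for 7 of the 9 genes and for 4.59% of all probe sets. The exceptions were AT5G44720 at 2 h and AT1G21440 at 8 h, each with a log2 difference of 0.01. In the fit that chose them, 6 of the 9 were called lower at 24 h, where 0.198% of the probe sets were called lower and 0.359% in either direction. In the mean over times 8 were, beside 0.234% lower, 0.242% higher and 0.476% in either direction. Nothing is read from these counts, since the same contrasts chose the genes. At 24 h AT4G25835 lay just inside the threshold of 0.05 with an adjusted p of 0.041, and the 3 members outside it each had 1. In the mean over times AT5G44720 lay just inside with 0.0227 and AT1G21440 just outside with 0.079.

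At 24 h both sulfate-free arrays lay below both untreated arrays for all 9 genes and for 20.7% of all probe sets kept. Both replete arrays lay above both untreated arrays for 3 genes, AT5G44720, AT1G21440 and AT3G50620, beside 19% of all. They lay below for 3, AT1G61740, AT3G14280 and AT5G60760, beside 18.6%. For AT3G45700, AT4G25835 and AT5G01740 the replete and untreated arrays overlapped. Both replete arrays above and both sulfate-free arrays below the untreated ones were seen for 3 genes at 24 h, beside 0.674%, and for 1 gene each at 2, 4 and 8 h, beside 0.33%, 0.476% and 0.579%. No gene of the 9 showed this at 12 h, where 0.828% of all probe sets did. The median log2 difference from untreated roots at 24 h was -0.71 over the 9 genes without sulfate and 0.00 with it, beside 0.02 and 0.01 over all probe sets. These comparisons share the untreated arrays, and both rest on arrays that chose the genes, so they are given as levels only.

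**Figure D4:**
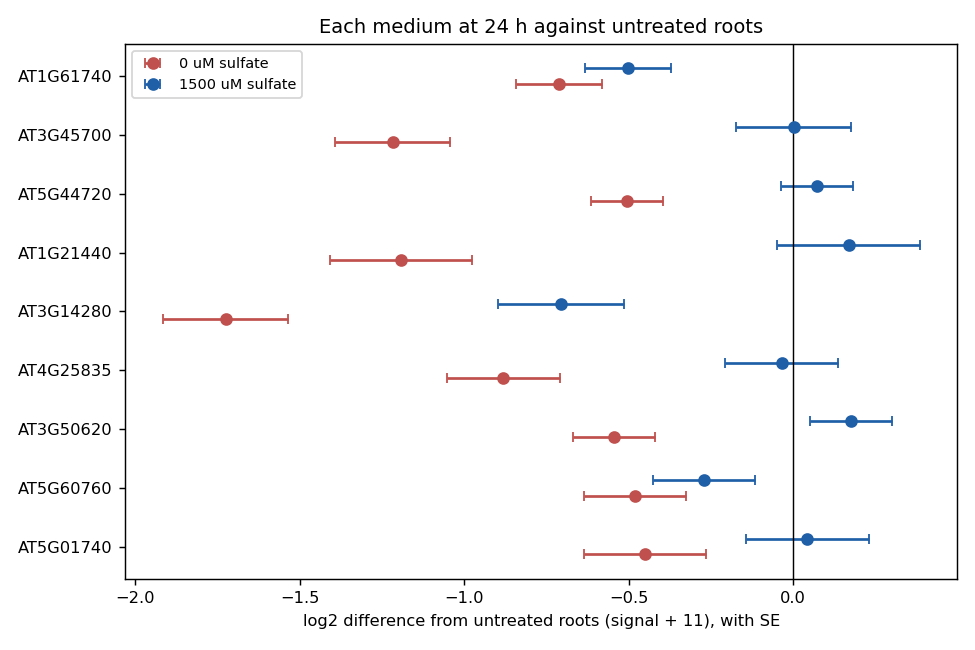
Log2 difference (signal + 11) from untreated roots at 24 h for each of the 9 genes, without sulfate (red) and with 1500 uM sulfate (blue), with standard errors as bars. The red points lie between -1.73 and -0.45 and the blue points between -0.71 and 0.18.

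Read against untreated roots, the mean of both media was called for 2, 2, 4, 5 and 2 of the 9 genes in the order of the times, beside 5.77%, 4.17%, 7.2%, 12.6% and 0.476% of all probe sets kept. At 2 h 1 rose and 1 fell, where 3.76% of the probe sets rose and 2.01% fell. It was again 1 and 1 at 4 h, beside 2.92% and 1.25%, and 1 and 3 at 8 h, beside 3.52% and 3.69%. At 12 h 1 rose, beside 5.77%, and 4 fell, beside 6.87%. The 2 called at 24 h fell, where 0.33% of the probe sets rose and 0.147% fell. These 5 comparisons share the untreated arrays. Each mean also holds the level of the sulfate-free roots, by which the genes were chosen. At 24 h the median over the 9 genes was -0.46 for the mean of both media and 0.00 for replete roots alone. The counts are therefore not read as an effect of transfer alone.

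Whether the mean of both media changed among the 5 times was tested without the untreated arrays in the contrast. The mean holds the level of the sulfate-free roots, so a difference between media that changes with time also enters this test. The test shares its estimate of the spread with the difference between media that chose the genes. The moderated F-test of limma was passed by AT5G60760 (adjusted p = 1.28e-08), AT1G61740 (2.33e-05), AT5G01740 (2.56e-05), AT3G45700 (5.03e-04) and AT3G14280 (5.89e-04), which makes 5 of 9, beside 20.3% of the probe sets kept. AT5G44720 had adjusted p = 0.0666 without a block, 0.0271 with the array letter as a factor and 0.0362 without the replete 2 h array A. AT4G25835, AT1G21440 and AT3G50620 had 0.297, 0.599 and 0.723. The 5 calls were made under all 29 alternatives.

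The genes that fell at 12 h shared that time with green tissue markers and with 6.87% of all probe sets kept. At no other time had a larger share fallen. RCA fell from 246.8 ± 53.24 in untreated roots to 76.78 ± 16.28 without sulfate and 86.43 ± 2.62 with it (SD, n = 2), a difference of -1.47 for the mean of both media (limma adjusted p = 3.12e-04). LHCB4.1 fell by 1.17 (adjusted p = 0.00286). RCA was also called at 4 h, at -0.80 (adjusted p = 0.0468), and at 8 h, at -1.26 (adjusted p = 0.00158). Of 9 listed green tissue genes these 2 lie on named probe sets. Their part in the falls of AT3G14280, AT5G01740, AT3G45700 and AT1G61740 was not tested. Between media at 24 h RCA differed by -0.35 (SE 0.25) and LHCB4.1 by 0.05 (SE 0.26). Of 8 listed root genes the 3 on named probe sets, PYK10, EXPA7 and EXPA18, had limma adjusted p of at least 0.0929 at every time against untreated roots, and at 12 h they differed by -0.13, -0.53 and 0.08.

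**Figure D5:**
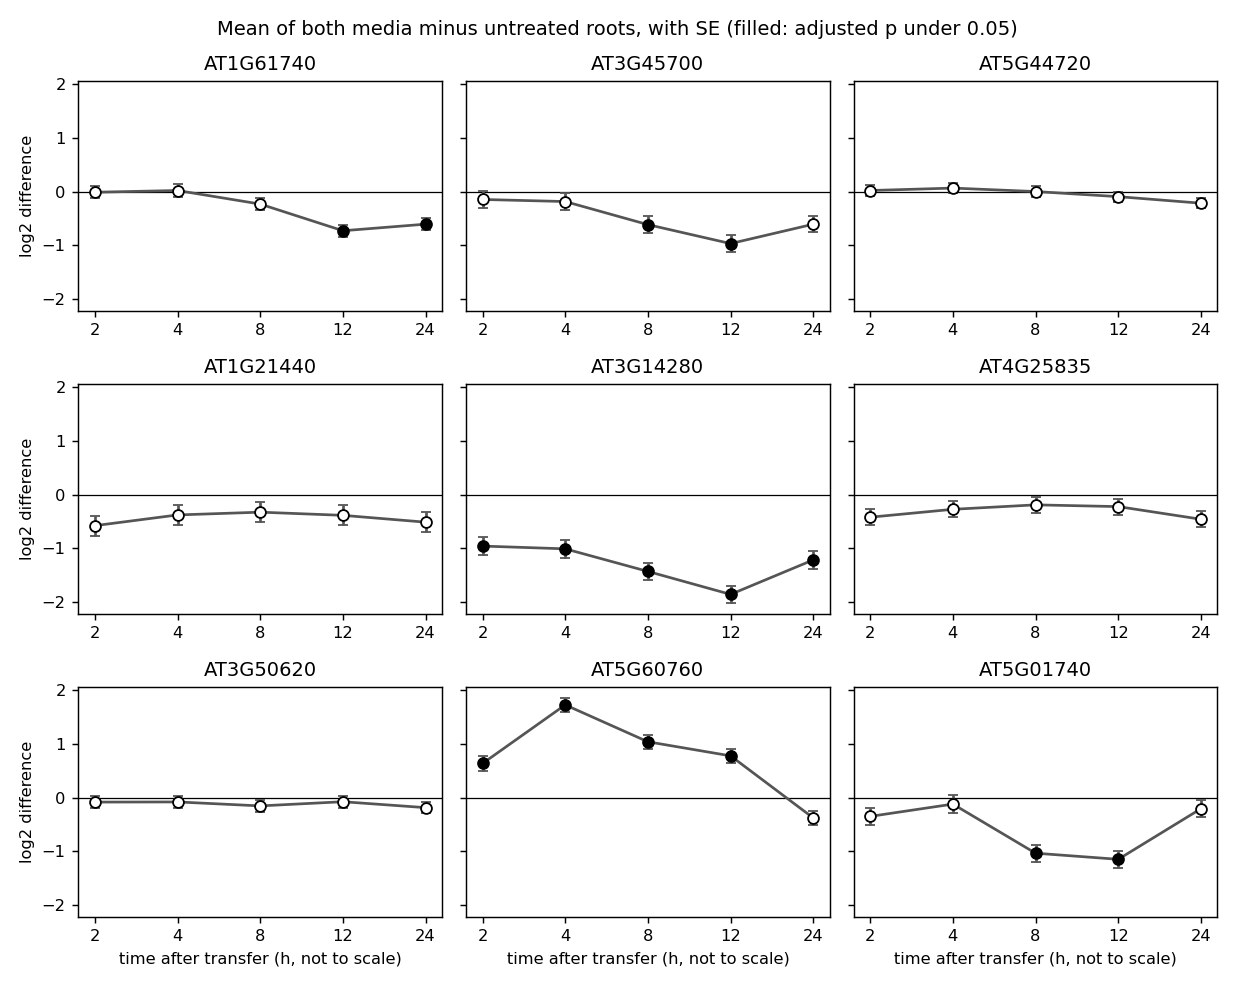
Log2 difference of the mean of both media from untreated roots (vertical axis) with its standard error, against time after transfer in h (horizontal axis, not to scale), for the 9 genes. Filled circles have a limma adjusted p under 0.05. AT5G60760 peaks at 1.73 at 4 h, AT3G14280 is filled at all 5 times, and AT5G44720 and AT3G50620 have open circles throughout.

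The order of the 11 groups describes how the media and the times were combined. The genes were chosen as lower without sulfate, so a sulfate-free group at the low end is partly built in. For AT1G61740 the highest mean was that of replete roots at 2 h and the lowest that of sulfate-free roots at 12 h, 2.55-fold apart. AT3G45700, AT3G14280 and AT5G01740 were also lowest without sulfate at 12 h, with highest over lowest of 2.53, 4.94 and 3.24. The other 5 genes were lowest without sulfate at 24 h, with ratios of 6.74 for AT5G60760, 2.62 for AT1G21440, 2.27 for AT4G25835, 1.78 for AT3G50620 and 1.63 for AT5G44720. Untreated roots were the highest group for AT3G14280 and AT4G25835.

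Most neighbours in that order could not be told apart. Of the 10 pairs of neighbouring groups, 9 overlapped for AT4G25835, 8 for AT5G01740 and 7 each for AT3G45700, AT5G44720, AT1G21440, AT3G14280 and AT3G50620. For AT1G61740 4 overlapped and for AT5G60760 3. Sulfate-free roots at 24 h stood clear below the next group for AT5G44720, AT1G21440, AT4G25835, AT3G50620 and AT5G60760.

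The courses of the 9 genes over the 11 group means were alike for some pairs and not for others. Pearson's r was 0.904 for AT3G45700 and AT3G14280 and 0.889 for AT1G21440 and AT4G25835. AT5G60760 correlated with the other 8 genes with r between -0.032 and 0.578. These points share their arrays and scaling, and the difference between media that chose the genes is part of them, so the values only describe the courses.

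Among 7332 other named probe sets, those most like each gene over the 11 group means were found in the same way. AT5G44720 was closest to AT2G31790 (r = 0.94) and to BCAT4 (0.92), which encodes a methionine aminotransferase of glucosinolate synthesis. These differed between media at 24 h by -1.59 (SE 0.25) and -2.68 (SE 0.17). AT1G21440 and AT4G25835 were in each other's closest 2, with AT4G25620 (0.884) and AT5G66820 (0.9) beside them. AT1G61740 was closest to NET1D (0.942), an actin-binding protein gene, and SBT4.12 (0.933), a subtilase gene. AT3G45700 was closest to AT2G03470 (0.96) and AT5G52530 (0.935), and AT3G14280 to AT5G56100 (0.961) and AT1G62480 (0.925).

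For AT5G01740 the closest were AT5G26200 (0.966) and SP1L4 (0.934), a gene of the SPIRAL1-like microtubule proteins. AT5G60760 was closest to AT1G33340 (0.942) and AT4G37080 (0.936), which differed between media at 24 h by -0.08 (SE 0.14) and -0.03 (SE 0.14). AT3G50620 was closest to AT3G04480 (0.889) and AT5G19960 (0.883). The 99th percentile of r lay between 0.579 for AT1G21440 and 0.825 for AT3G14280.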

How the data were processed

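RNA of 22 root samples was measured on 1 array each. Per the submitters' processing notes the authors used MAS5, and each deposited value is a probe set's signal, a linear intensity. The MAS5 version is not given in the sources used here, nor is its target. Every array had a mean of 100.01 once 2% was trimmed from either end, and the signals were not scaled again. Detection calls were not used; precision is limited by how many arrays there are. Of 22810 probe sets, 64 controls were left out. For the other 22746, log2(signal + 11) was taken, 11 being 0.25 of the pooled median of 43.9, rounded. Those with a mean under the 40th percentile (a signal of about 27) were dropped, leaving 13648. One limma 3.58.1 fit (R 4.3.3; lmFit, eBayes with an intensity trend) of the 11 groups had 11 residual and 5.61 prior degrees of freedom. P-values were adjusted by Benjamini-Hochberg over these 13648, and calls were made at 0.05. The scripts were tested on simulated data.

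Gene names came from the platform annotation, in which 13513 probe sets were counted as having 1 gene and 503 several, and 8730 are unnamed here. Entries holding a semicolon were counted as several genes, also where it may be part of a single gene's name. Of the 13513, 13484 matched RefSeq's table of assembly TAIR10.1. Relatives were listed from background knowledge: TauE/SafE, nitrate and peptide transporter and molybdenum cofactor genes, relatives of AT1G21440 and of AT4G25835, root and green tissue genes, and 12 sulfate transporters. Of these 12, 0 matched a probe set counted as having 1 gene, which may reflect that reading of semicolons. The text names the 9 members, the 2 probe sets most like each, and per list up to 3 called genes and the widest other difference between media at 24 h. GTR1, AT3G45680, AT3G45690, AT3G45710, AT1G30910 and the root genes were added after their values were seen. The members and lists were chosen with earlier results of these data known.

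The letters A and B were taken to pair the arrays. The A minus B differences of the mean of both media and of untreated roots correlated over probe sets with r of 0.479, 0.494, 0.235, 0.349 and 0.428 at 2, 4, 8, 12 and 24 h, and those of the media with each other with r between 0.225 and 0.631. Of all 55 pairs of groups 54 were over 0.1, the lowest being 0.028. The fit above has no block, so its p-values ignore this pairing. That leaves out that arrays of the same letter vary together, across groups as well as within a time. Alternatives were 2 replicate blocks, pseudocounts of 1 and 32, no filter, quantile normalization, no trend and leaving out each array in turn.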

Additional observations from a re-analysis of the deposited data

Results flagged for a closer look

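In 6 cases both replete arrays lay above both untreated arrays while both sulfate-free arrays of the same time lay below them. They were AT1G61740 at 2 h, with a log2 difference between media of -0.57, AT5G01740 at 4 h (-0.47), AT5G44720 at 8 h (-0.19) and at 24 h (-0.58), AT1G21440 at 24 h (-1.36) and AT3G50620 at 24 h (-0.72). At 2, 4, 8 and 24 h this arrangement was found for 0.33%, 0.476%, 0.579% and 0.674% of all probe sets kept. The difference was not tested, since it chose these genes. Some cases rest on near ties, such as replete 415.2 against untreated 412.7 for AT5G01740 and 362.9 against 360.5 for AT5G44720 at 24 h. Replete roots differed from untreated ones by 0.27 (SE 0.13) for AT1G61740 and 0.18 (SE 0.12) for AT3G50620. In the other cases that difference was at most 0.17 and smaller than its SE.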

How the results depend on the processing

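Under the 7 settings other than leaving out an array, every call of the members against untreated roots or among the times was kept, and 4 were added, all with the letter as a factor. With this replicate block the counts of probe sets called were 1441, 1104, 2032, 3262 and 343 at 2, 4, 8, 12 and 24 h (788, 569, 983, 1725 and 65 without), 4936 among the times (2771), 74 between media at 24 h (49) and 143 over the times (65), and 4 members were called at 2 h (2 without). With a random replicate block for each time and letter they were 89 between media at 24 h, 227 over the times and 1601 among the times. Leaving out 1 array gave 284 to 857, 164 to 583, 257 to 1105, 380 to 2025 and 24 to 79 calls in order of time, 2151 to 3361 among the times, 27 to 53 between media at 24 h and 52 to 83 over the times. The lowest at each time against untreated roots came without the untreated array A; the count also fell past 1.5-fold without the untreated array B (472, 347, 592, 1070 and 27 in order of time), the sulfate-free array A of 8 h (596), 12 h (1139) or 24 h (42) or the replete 12 h array B (1041). Between media at 24 h it was 29 without the sulfate-free array A and 27 without the replete array B. Members called then numbered 0 to 3, 1 to 2, 3 to 4, 5 and 0 to 3 in order of time and 5 to 6 among the times. Uncalled differences from untreated roots that changed sign were those of AT1G61740 at 2 h (-0.17 to 0.15) and 4 h (-0.14 to 0.18), AT5G44720 at 2 h (-0.0516 to 0.0908) and 8 h (-0.0338 to 0.0345), AT4G25835 at 8 h (-0.44 to 0.0635) and 12 h (-0.48 to 0.031) and AT3G50620 at 4 h (-0.16 to 0.0019) and 12 h (-0.15 to 0.006). The cause was not tested.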
